A study of Capitella teleta with 12 samples.

Results

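Transcripts of 6 BMP branch ligands of the annelid *Capitella teleta* were followed in single cleavage-stage embryos. The ligands were *BMP2/4* (gene model 173895), *BMP5/8* (172350), *BMP3* (184704), *maverick* (38881), *BMP10* (35187) and an unknown BMP-like ligand (29529). They were taken by gene model number from the pathway components that the study lists, not by their levels, and all 6 were found among the 32415 gene models of the count table. Whole embryos were sequenced one by one with CEL-Seq, which tags the 3′ end of each polyadenylated RNA with an embryo barcode and a molecular identifier. There were 4 embryos of 8 cells, 3 embryos of 16 cells, the stage through which the inductive signal of the organizer cell 2d is needed, and 5 embryos of 32 cells. The labels name no treatment, and a whole embryo pools all its cells, so fewer expressing cells and less RNA per cell cannot be told apart. The labels give no parent, brood or collection day for any embryo, so p-values measure the spread between these embryos only.

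BMPs are secreted dimers of the TGF-β superfamily that bring type I and type II receptors together, upon which the type I receptor phosphorylates Smad1/5/8, which enters the nucleus with Smad4. Extracellular proteins such as Noggin, Chordin and Gremlin bind the ligands and keep them from the receptors. In many bilaterians a gradient of BMP activity patterns the dorsal-ventral axis. The RNAs present in the first cleavages were in large part loaded into the egg by the mother, as in other animals.

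Total counts per embryo ranged from 236321 to 491733, and 11854 gene models with 10 or more counts over the 12 embryos were tested. Of the ligands, 4 reached this minimum. Levels are given as CPM, a count relative to 1000000 counts of its embryo, scaled by edgeR's TMM factors unless stated to be over the totals. Stages were compared in edgeR (quasi-likelihood F test), with p-values adjusted by Benjamini-Hochberg over all tested genes and a threshold of 0.05. Embryos of a stage differed by more than sampling noise in all 19 pairs (chi-square per degree of freedom 1.81 to 3.02).

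The ligands fell into a set of 3 abundant genes and a set of 3 rare ones. *BMP2/4*, *BMP5/8* and *BMP3* together gave 895 of the 919 ligand counts (97.4%), and *maverick*, *BMP10* and the unknown ligand gave the remaining 24 counts. Averaged over the 12 embryos, the order was *BMP2/4* (128 CPM), *BMP5/8* (48.1 CPM), *BMP3* (36.5 CPM), *maverick* (3.23 CPM), the unknown ligand (1.76 CPM) and *BMP10* (0.876 CPM). A count was found for 4 of the ligands in embryos of 8 cells, for all 6 in those of 16 cells and for 5 in those of 32 cells. CEL-Seq counts 1 tag per molecule whatever its length, so levels of different genes were not divided by length. They carry over to transcript numbers only where a gene model reaches the transcript's 3′ end, and this was not tested.

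**Figure D1:**
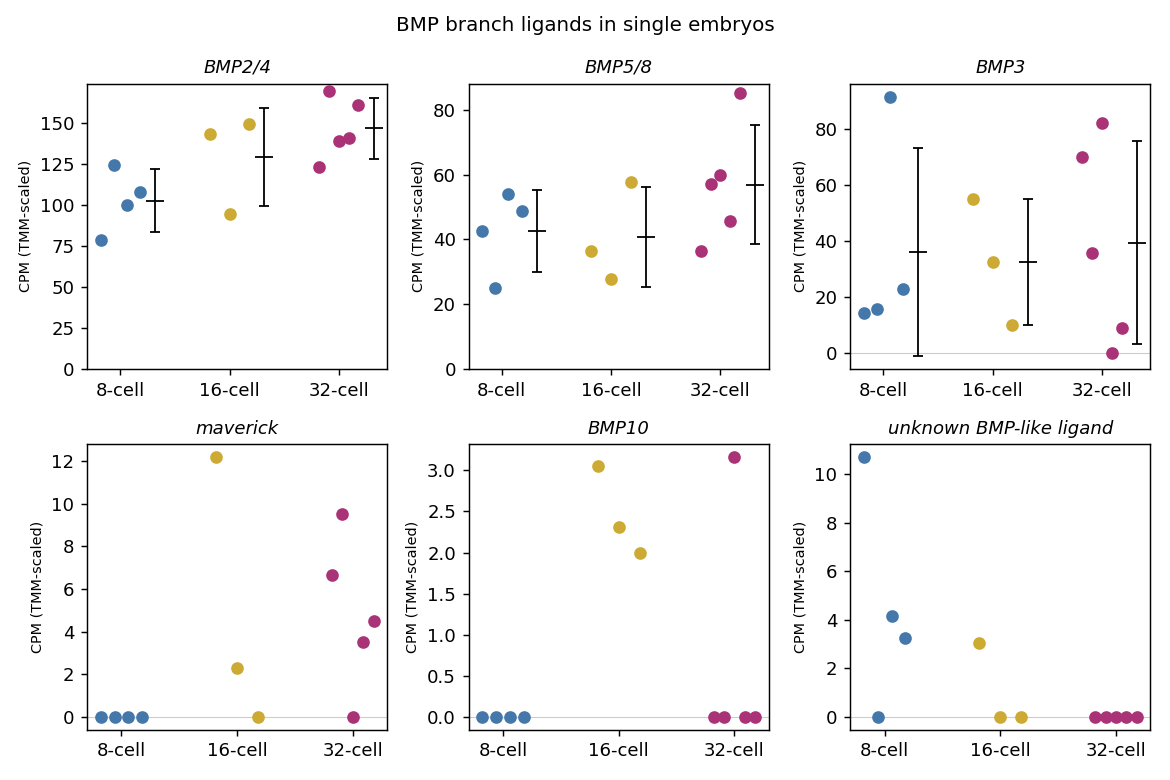
TMM-scaled CPM of each ligand (vertical axes, 1 scale per ligand, linear) in every embryo (points) by stage, with mean and SD as bars for the 3 abundant ligands only. *BMP2/4* lay between 78.4 and 169 CPM in the 12 embryos, *BMP3* between 0 and 91.4 CPM, and the rare ligands stayed at or under 12.2 CPM.

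The abundant and the rare ligands also differed in their gene models. In the annotation of the Capca1 assembly, which gives positions without scaffold names, *BMP2/4* spans positions 70742 to 74987 (4246 bases), *BMP5/8* 6296 to 10781 (4486 bases) and *BMP3* 837521 to 841902 (4382 bases) of their scaffolds. *maverick* spans 144167 to 144712 (546 bases), *BMP10* 6974 to 8485 (1512 bases) and the unknown ligand 322240 to 322554 (315 bases). The last 3 spans are whole multiples of 3 bases, as are 78.1% of all spans under 600 bases, 48.4% of those of 600 to under 2000 bases and 33.9% of those of 2000 bases or more. Of the 5221 matched gene models under 600 bases, 38.8% had a count in any embryo, compared with 56.3% of the 11939 models of 600 to under 2000 bases, the class of *BMP10*, and 84.0% of the 6855 models of 4000 bases or more. The count minimum was reached by 14.0%, 27.3% and 58.1% of these classes, and by *maverick*. Of other listed branch genes, *ADMP*, *BMP Receptor 2*, *Noggin B*, *Chordin-like* and *Tolloid* (2588 to 12459 bases) had 1 to 5 counts. *BMP Receptor 1*, *Smad1/5/8*, *Smad4*, *Smad6/7*, *TSG* and *SMURF* (3117 to 9769 bases) had 75 to 742. *Noggin A* (1611 bases) had 86, *Activin Receptor 1* (1826 bases) had 87 and *Gremlin* (336 bases) had 0. The part of model length in the low counts of *maverick*, *BMP10* and the unknown ligand was not tested.

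Across the 3 stages edgeR called 0 of the 4 tested ligands, beside 17.2% of all tested genes. An unadjusted p under 0.05 was found for 2 of them, *BMP2/4* (0.0362, adjusted p = 0.135) and *maverick* (0.0429, adjusted p = 0.151). The counts of ligands called were also 0 from the 8- to the 16-cell stage (9.43% of all genes called, 1 ligand with an unadjusted p under 0.05), from the 16- to the 32-cell stage (2.21%, 0 ligands) and from the 8- to the 32-cell stage (20.0%, 2 ligands). DESeq2 called 0 of the ligands in each of these 4 comparisons. It gave *maverick* no adjusted p, so this covers *BMP2/4*, *BMP5/8* and *BMP3* only. The shares it called were 13.3%, 7.03%, 1.78% and 14.8% of all genes in the same order, with genes lacking an adjusted p counted as not called. The median log2 fold change of the 4 ligands was 0.13 between 8 and 16 cells, 0.33 between 16 and 32 cells and 0.45 between 8 and 32 cells, compared with 0.08, -0.0014 and 0.09 over all tested genes. The first and the third of these ligand medians were the same with *maverick*, which had no count at the 8-cell stage, set to the lower bound of its change.

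*BMP2/4* is the counterpart of vertebrate BMP2 and BMP4 and of Decapentaplegic in *Drosophila*, the ligands best known for dorsal-ventral patterning. The 4 embryos of 8 cells held 78.4, 125, 99.8 and 108 CPM, on 22, 40, 48 and 33 counts. Those of 16 cells held 143, 94.8 and 149 CPM, on 47, 41 and 75 counts, and those of 32 cells held 123, 169, 139, 141 and 161 CPM, on 37, 71, 44, 40 and 36 counts. Of the 5 embryos at the 32-cell stage, 4 lay above the highest 8-cell embryo, and the ranges of the stages overlapped. The stage means were 103 ± 19.2 CPM for 8 cells (SD, n = 4), 129 ± 29.9 CPM for 16 cells (SD, n = 3) and 147 ± 18.6 CPM for 32 cells (SD, n = 5).

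Between 8 and 32 cells *BMP2/4* changed by 0.51 on the log2 scale (standard error 0.19, 95% interval 0.13 to 0.90, adjusted p = 0.0529 in edgeR), just short of the threshold. It was 0.33 to the 16-cell stage (standard error 0.21, 95% interval -0.10 to 0.75, adjusted p = 0.366) and 0.19 from there to the 32-cell stage (standard error 0.19, 95% interval -0.21 to 0.59, adjusted p = 0.834). The upper ends of the first and the second of these intervals correspond to a 1.86-fold and a 1.68-fold rise. Over 20 alternative settings the adjusted p of the 8- to 32-cell change lay between 0.0140 and 0.157 and was past the threshold in 8, with a log2 fold change of 0.41 to 0.73. Leaving out 1 embryo brought it past the threshold for 8-cell replicate 2 (adjusted p = 0.0383 in edgeR), 16-cell replicate 2 (0.0371) and 32-cell replicate 1 (0.0439).

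*BMP5/8* belongs with vertebrate BMP5 to BMP8 and *Drosophila* Glass bottom boat, ligands that often act as dimers with BMP2/4 types. The 8-cell embryos had 42.8, 24.9, 54.0 and 48.9 CPM, on 12, 8, 26 and 15 counts. The 16-cell embryos had 36.6, 27.7 and 57.7 CPM, and the 32-cell embryos 36.6, 57.3, 60.0, 45.7 and 85.2 CPM. The stages overlapped throughout, and 3 of the 5 embryos at the 32-cell stage lay above the highest 8-cell embryo. Between 8 and 32 cells the log2 fold change was 0.38 (standard error 0.30, 95% interval -0.25 to 1.01, adjusted p = 0.422 in edgeR), and between 8 and 16 cells it was -0.07 (standard error 0.34, 95% interval -0.78 to 0.64, adjusted p = 0.947). From the 16- to the 32-cell stage the value was 0.45 (standard error 0.32, 95% interval -0.23 to 1.12, adjusted p = 0.718 in edgeR). The 95% interval of *BMP5/8* between the 8- and 32-cell stages includes no change and reaches up to a 2.01-fold rise.

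*BMP3* is known in vertebrates as a ligand that binds type II receptors and dampens rather than drives BMP signaling. It varied more between embryos of a stage than the other abundant ligands. At the 8-cell stage 3 embryos had 14.2, 15.6 and 22.8 CPM, on 4, 5 and 7 counts, and 8-cell replicate 3 had 91.4 CPM on 44 counts. This embryo was 5.21-fold above the mean of the other 3. Its exact 95% counting interval, 70.9 to 131 CPM over its total, did not overlap the intervals of the others, which reached 46.8 CPM at most. At the 16-cell stage *BMP3* was at 54.9, 32.4 and 9.95 CPM.

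At the 32-cell stage *BMP3* was at 69.8, 35.8, 82.1, 0 and 8.96 CPM. The 0 counts of 32-cell replicate 4 allow up to 10.03 CPM over its total (3 counts), and the 26 counts of 32-cell replicate 3 have an interval of 51.9 to 116 CPM (exact 95% interval of counting error). *BMP2/4* in the same pair of embryos had 141 and 139 CPM. On the log2 scale *BMP3* changed by -0.34 between 8 and 16 cells (standard error 0.71, adjusted p = 0.833 in edgeR) and by 0.05 between 8 and 32 cells (standard error 0.62, 95% interval -1.23 to 1.34, adjusted p = 0.960). Between 16 and 32 cells the value was 0.39 (standard error 0.69, adjusted p = 0.922 in edgeR). Each was smaller than its error.

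The directions of these changes rested on single embryos. Without 8-cell replicate 3 the mean of *BMP3* at the 8-cell stage was 17.6 ± 4.62 CPM (SD, n = 3) instead of 36.0 ± 37.1 CPM (SD, n = 4). The log2 fold change between 8 and 16 cells then turned to 0.80, that between 8 and 32 cells rose from 0.05 to 1.17 (adjusted p = 0.620 and 0.296 in edgeR), and that between 16 and 32 cells stayed at 0.38. The first also turned without 16-cell replicate 3, to 0.13. The second turned to values from -0.37 to -0.11 without 8-cell replicate 1, 2 or 4 or 32-cell replicate 1 or 3. The third turned without 16-cell replicate 3 (-0.081) or 32-cell replicate 3 (-0.038). The same embryo had the highest total of its stage, 451149 counts, and 12740 detected gene models, compared with 11107 to 11526 in the other 8-cell embryos. At the 16-cell stage the embryo with the highest total, 491733 counts, had the lowest *BMP3*. The part of depth in the spread of *BMP3* was not tested.

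**Figure D2:**
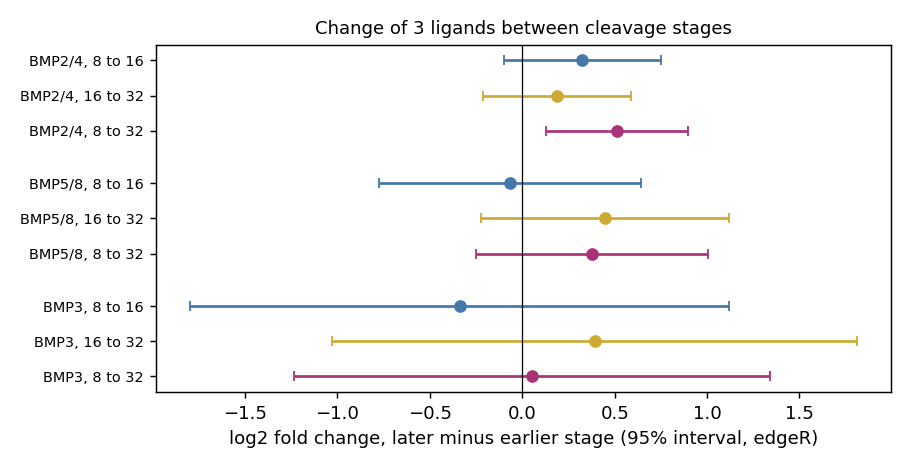
Log2 fold change of the 3 abundant ligands (horizontal axis, later minus earlier stage) with the 95% interval of edgeR's fit as bars, for each pair of stages (blue, 8 to 16 cells; yellow, 16 to 32; purple, 8 to 32). The interval of *BMP2/4* from the 8- to the 32-cell stage, 0.13 to 0.90, is the only one of these 9 that leaves out 0, and *BMP3* has the widest intervals.

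Spread between embryos was compared with what counting alone would give. For *BMP2/4* the coefficient of variation was 18.7% at the 8-cell, 23.2% at the 16-cell and 12.7% at the 32-cell stage, beside counting errors of 16.7%, 13.6% and 14.8% at its mean counts. *BMP5/8* had 29.7%, 37.9% and 32.2%, beside 25.6%, 23.8% and 24.1%. *BMP3* had 103%, 69.3% and 92.0%, beside 25.8%, 28.5% and 28.0%. The spread of *BMP2/4* was above the counting error at 8 and 16 cells and below it at 32 cells. That of *BMP5/8* and *BMP3* was above it at each stage. No excess of *BMP2/4* or *BMP5/8* over the errors above held whichever embryo was dropped. *BMP2/4* came to 11.5% once 8-cell replicate 1 was dropped, and to 2.92% once 16-cell replicate 2 was. *BMP5/8* came to 11.6% (8-cell replicate 2 dropped), 19.4% (16-cell replicate 3) and 21.7% (32-cell replicate 5). The excess of *BMP3* at 8 cells rested on 8-cell replicate 3, without which its coefficient was 26.3%. The counting error of 25.8% includes the 44 counts of that embryo and would be larger for the 4, 5 and 7 counts of the others. Counting errors were not recomputed with an embryo dropped. At 16 cells the coefficient of *BMP3* fell to 36.5% without 16-cell replicate 3. At 32 cells it was at least 67.5% with any 1 embryo left out.

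In edgeR's dispersions, which remove counting error, the coefficient of variation between embryos of a stage was 15.7% for *BMP2/4*, 24.6% for *BMP5/8* and 62.7% for *BMP3*. edgeR draws the dispersion of each gene toward that of genes of like level, so these values do not come from the gene alone. Among the 500 tested genes nearest in mean level, the dispersion of *BMP3* stood at the 97.6 percentile, that of *BMP5/8* at the 70.6 percentile and that of *BMP2/4* at the 43.2 percentile. The median of the genes near *BMP3* was 24.5%. *maverick* stood at the 88.8 percentile on 13 counts. These percentiles are descriptions with no test.

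**Figure D3:**
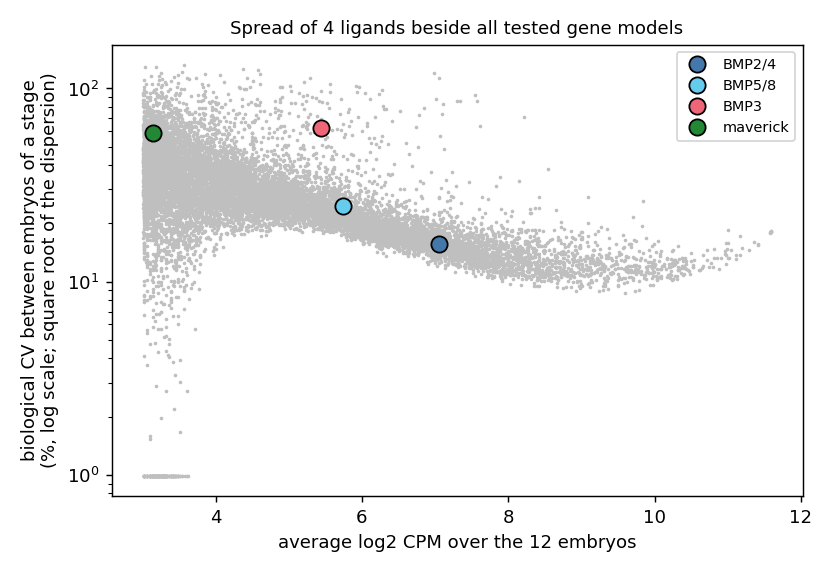
Coefficient of variation between embryos of a stage (vertical axis, percent, log scale, from edgeR's dispersions) against average log2 CPM for all 11854 tested gene models (gray) and 4 ligands (colored). *BMP3*, at 62.7%, lies above most genes of its level, whereas *BMP2/4*, at 15.7%, lies among them.

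Within embryos, *BMP2/4* was the highest of the ligands in 12 of 12 embryos. Its log2(CPM + 1), over the totals, exceeded that of *BMP5/8* by 1.43 ± 0.45 (SD, n = 12), a 2.69-fold difference, and that of *BMP3* by 2.43 ± 1.88 (SD, n = 12). Flipping the signs of the differences in an exact two-sided permutation test, p was 0.000488 for each pair, the smallest these can give (0.000732 after adjustment over the 3 pairs). *BMP5/8* and *BMP3* did not differ beyond their spread, with a difference of 1.00 ± 1.90 (SD, n = 12) in favor of *BMP5/8*, the higher value in 7 of 12 embryos and an exact permutation p of 0.0898 (0.0898 adjusted). The mean difference was 0.59 without 32-cell replicate 4, which had 0 *BMP3* counts, and 0.58 with a pseudocount of 10. The closest approach of *BMP3* to *BMP2/4* was in 8-cell replicate 3, where the difference was 0.12.

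The order of the abundant ligands was also compared between stages. *BMP2/4* exceeded *BMP5/8* by 1.28 ± 0.67 (SD, n = 4), 1.68 ± 0.30 (SD, n = 3) and 1.40 ± 0.33 (SD, n = 5) on the log2(CPM + 1) scale at the 8-, 16- and 32-cell stages. These differences did not differ between the stages beyond their spread (exact permutation test over 27720 assignments of embryos to stages, p = 0.545). Nor did those of *BMP2/4* to *BMP3* (exact permutation p = 0.761) and of *BMP5/8* to *BMP3* (exact permutation p = 0.751). Within a single stage the sign-flip test cannot pass 0.05: its smallest exact permutation p is 0.125 at 8 cells, 0.25 at 16 cells and 0.0625 at 32 cells.

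Further down the order, *BMP3* had more counts than *maverick* in 11 of 12 embryos, the exception being 32-cell replicate 4. *maverick* had more counts than the unknown ligand in 6 embryos, as many in 3 and fewer in 3. The unknown ligand had more counts than *BMP10* in 3 embryos, as many in 6 and fewer in 3, so the rare ligands had no settled order.

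The make-up of the ligand counts was compared embryo by embryo. *BMP2/4* took 57.0 ± 14.7% of them at the 8-cell stage (SD, n = 4), 61.4 ± 6.03% at the 16-cell stage (SD, n = 3) and 59.9 ± 9.91% at the 32-cell stage (SD, n = 5). Its share was lowest in 8-cell replicate 3, at 40.0% of 120 ligand counts, where *BMP3* took 36.7%, and highest in 8-cell replicate 2, at 75.5% of 53. *BMP5/8* held 23.2 ± 6.27%, 19.4 ± 6.20% and 22.9 ± 6.33% at the 8-, 16- and 32-cell stages (SD, n = 4, 3 and 5). The share of *BMP3* ran from 0 to 36.7% over all embryos. The 6 ligands summed to 186 ± 45.0 CPM at 8 cells (SD, n = 4), to 210 ± 47.3 CPM at 16 cells (SD, n = 3) and to 248 ± 37.2 CPM at 32 cells (SD, n = 5).

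**Figure D4:**
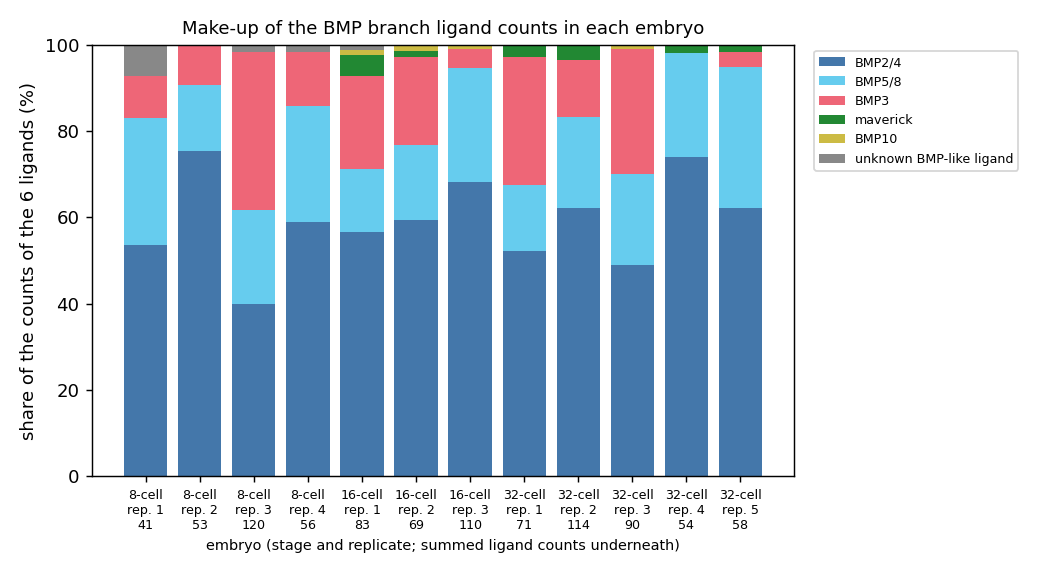
Share of each ligand (vertical axis, percent, stacked) in the summed counts of the 6 ligands for the 12 embryos, with the summed counts under each bar. *BMP2/4* is the largest part in every embryo, from 40.0% to 75.5%, and the part of *BMP3* runs from 0 to 36.7%.

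*maverick* is a TGF-β superfamily ligand first named in *Drosophila*. No count was found in any of the 4 embryos of 8 cells, which allows up to 2.18 CPM over their summed totals. The embryos of 16 cells had 4, 1 and 0 counts, and those of 32 cells had 2, 4, 0, 1 and 1. Counts were thus present in 2 of 3 and in 4 of 5 embryos. The measured level over the totals was at least 1.87-fold higher at 16 cells and at least 2.33-fold higher at 32 cells than 3 counts over the 8-cell embryos would be, with the error of the later counts left aside. With the counting error of both stages, the exact 95% lower limits of the ratios were 1.03 and 1.49. Of the 5 counts at 16 cells, 4 came from 16-cell replicate 1, and the 1 count left without it gives no fold. The adjusted p in edgeR was 0.164 to the 16-cell and 0.0665 to the 32-cell stage, short of the threshold. Over 14 alternative settings that gave it a value, the latter lay between 0.0406 and 0.141, with 3 past the threshold, among them the fit without 32-cell replicate 3 (0.0444). Permuting the stage labels exactly gave p = 0.188 for its CPM over the totals. Between the 16- and 32-cell stages the pooled ratio was 1.25 (exact 95% interval of counting error 0.361 to 4.86).

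*BMP10*, known in vertebrates from the developing heart and blood vessels, had 4 counts in all. None came from the 8-cell stage, 3 came from the 16-cell stage, 1 from each embryo, and 1 came from 32-cell replicate 3. The embryos of the 8- and 16-cell stages did not overlap, which here means counts of 0 beside counts of 1. No other ligand was free of overlap between these stages, beside 20.0% of the tested genes. *BMP10*, under the count minimum, is not among the tested genes. Between the 8- and 32-cell stages 0 ligands were free of overlap (18.3% of the tested genes), and between the 16- and 32-cell stages 0 (7.86%). The ratio of the 16- to the 32-cell stage was 3.84, with an exact 95% counting interval of 0.308 to 201. The exact permutation test over the stages gave p = 0.0258, but the p was above 0.05 without any one of the 8- or 16-cell embryos (0.0561 to 0.0788), and edgeR with no minimum count gave an adjusted p of 0.494. Upper limits for a count of 0 were 2.18 CPM at the 8-cell stage, not far below the 2.44 CPM measured at the 16-cell stage.

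The unknown BMP-like ligand had the opposite distribution, with 6 of its 7 counts at the 8-cell stage. Embryos of 8 cells had 3, 0, 2 and 1 counts, embryos of 16 cells had 1, 0 and 0, and the 5 embryos of 32 cells had none. With 3 counts allowed over the 32-cell embryos, its level over the totals was at least 2.28-fold lower there than measured at 8 cells, with the error of the 6 counts left aside. The exact 95% upper limit of the ratio of 32 to 8 cells, with the counting error of both, was 0.743. The ratio of the 8- to the 16-cell stage was 5.36, with an exact 95% counting interval of 0.650 to 247. The exact permutation p over the 3 stages was 0.0318, one of 2 such tests of ligands under the count minimum. It was 0.109 without 8-cell replicate 1, which held 3 of the counts, and 0.0606 to 0.0788 without any one of the 16-cell embryos. edgeR with no minimum count gave an adjusted p of 0.148, and thinning every embryo to the smallest total gave an exact permutation p of 0.205.

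The profiles of the abundant ligands were compared over the 12 embryos. As a description, Pearson's r of log2(CPM + 1) was 0.44 for *BMP2/4* with *BMP5/8*, -0.17 for *BMP2/4* with *BMP3* and -0.09 for *BMP5/8* with *BMP3*. The pairs share libraries and their depth. The gene models most like each ligand among those with a mean of at least 10 CPM were sought over the same 12 embryos. For *BMP2/4* these were 223572 (r = 0.90) and 222374 (r = 0.90), for *BMP5/8* 200370 (r = 0.86) and 151154 (r = 0.86), for *BMP3* 218532 (r = 0.88) and 210987 (r = 0.84), and for the sparse *maverick* 224235 (r = 0.84) and 153528 (r = 0.84). They are the highest of 7651 or more genes compared for each ligand, carry no gene name in the annotation used here, and are given with no test.

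Other components of the BMP branch were read beside the ligands. *ADMP*, a further BMP-type ligand known in vertebrates from the dorsal organizer, had a single count, in 1 embryo at the 32-cell stage. Of the 14 other listed genes of the branch, *ADMP* included, 8 could be tested and 3 were called by edgeR across the stages, beside 17.2% of all genes. These were *Smad1/5/8*, the transcription factor activated by BMP receptors, *Noggin A*, a secreted antagonist that binds BMPs, and *TSG*, a secreted modulator of BMP signaling. From the 8- to the 32-cell stage *Smad1/5/8* rose by 2.99 on the log2 scale (standard error 0.54, adjusted p = 0.000270 in edgeR) and *TSG* fell by 0.95 (standard error 0.16, adjusted p = 0.000150). *Noggin A* had no count at the 8-cell stage and passed the threshold in the same comparison (adjusted p = 3.60e-06 in edgeR).

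The tested genes that did not pass across the stages were *BMP Receptor 1* (adjusted p = 0.433 in edgeR), *Activin Receptor 1* (0.0992), *Smad4* (0.453), *Smad6/7* (0.601) and *SMURF* (0.688), a ubiquitin ligase that acts on Smads and receptors. The genes with too few counts were *BMP Receptor 2*, *Gremlin*, *Chordin-like*, *Noggin B*, *Tolloid* and *ADMP*, with 0 to 5 counts each over the 12 embryos. Of the 6 Activin/Nodal ligands in the table, 2 could be tested and 1 passed across the stages, beside 17.2% of all tested genes. It was *activin/inhibin/myostatin-like 4* (adjusted p = 0.0296 in edgeR).

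Relative to the most abundant ligand, *TSG* was lower and *Noggin A* higher at the later stages. For each *BMP2/4* count there were 2.55 *TSG* counts at the 8-cell stage (2.18 to 3.10 in single embryos), 1.06 at the 16-cell stage (0.880 to 1.51) and 0.895 at the 32-cell stage (0.634 to 1.24). The 8-cell embryos did not overlap those of the later stages. In CPM of single genes, 20.0% of the tested genes had no overlap between the 8- and 16-cell stages, and 18.3% between the 8- and 32-cell stages. *Noggin A* had 0 counts beside 143 of *BMP2/4* at the 8-cell stage, 4 beside 163 at the 16-cell stage and 82 beside 228 at the 32-cell stage. Per *BMP2/4* count, *SMURF* was at 1.20 (0.909 to 1.36 in single embryos), 0.804 (0.723 to 0.927) and 0.798 (0.521 to 1.05) at the 8-, 16- and 32-cell stages. These ranges overlapped. *SMURF* itself changed by -0.03 on the log2 scale between 8 and 32 cells (standard error 0.20, adjusted p = 0.941 in edgeR). *Smad1/5/8* was higher later, at 0.0490, 0.104 and 0.290. These ratios were chosen after the values were seen and are given with no test.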

How the data were processed

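Reads were split by barcode by the authors, aligned with Bowtie2 to the Capca1 genome assembly and counted per gene model by molecular identifier with HTSeq, through the CEL-Seq pipeline at a commit that the methods name. Versions of Bowtie2 and HTSeq were not found in the sources used here. The methods also describe a binomial conversion to transcript numbers, and it is not stated whether the deposited table precedes it. The deposited counts are whole numbers, not normalized, of which 28 equal the highest value, 1024, and the deposited CPM values equal each count over the total of its embryo, within a relative deviation of 4.84e-10. The authors' DESeq2 table holds their own fold changes and p-values and was not used. No RNA spike-in was found in the count table (0 ERCC rows).

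For the tests, edgeR 4.0.16 ran under R 4.3.3 (TMM scaling, quasi-likelihood F test, all 12 embryos in the same fit, no covariates, Benjamini-Hochberg adjustment at 0.05). DESeq2 1.42.0 was an alternative, and permutations used Python 3.11.15 and scipy 1.17.1. Fits were tested on simulated data. Genes with fewer than 10 counts over the 12 embryos were tested by exact permutation of CPM over the totals. Standard errors are the log2 fold change over the square root of F. Intervals are at 95%. Those of edgeR include the spread between embryos, whereas counting intervals and the limits for a count of 0, which allow 3 counts, cover counting error only. Of the gene models, 98.6% matched a locus tag of the same assembly. Named genes were the 6 ligands, the listed genes of the pathway and, for each tested ligand, the 2 genes of most similar profile. The members, lists and tests were chosen with earlier results of these data known.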

Additional observations from a re-analysis of the deposited data

Results flagged for a closer look

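*BMP3* in 8-cell replicate 3 lay apart from its stage at 91.4 CPM, with a gap to the nearest embryo of 0.889 of the whole range. *BMP10* in 32-cell replicate 3 lay apart at 3.16 CPM, which is 1 count where the other 4 embryos had 0. These were 2 of 11 groups looked at. Chance alone marks about 1 in 20 groups, a rate that has no meaning for *BMP10*, since a single count beside zeros always stands apart.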

How the results depend on the processing

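Of 518 values recomputed under other settings, 461 kept their direction and their side of the threshold or stayed within the bounds set for a value without a test. The number of ligands called across the stages rose from 0 to 1 (*BMP2/4*, adjusted p = 0.0421 in edgeR) when embryos were thinned to the smallest total. From the 8- to the 32-cell stage it rose to 1 with DESeq2 size factors, filterByExpr, thinning or only the stages compared (*BMP2/4*), to 1 with no filter (*maverick*) and to 2 in a robust fit, and it was 0 to 1 with each embryo left out. The cause was not tested. The exact permutation p of *BMP10* was 0.00606 to 0.0788 with each embryo left out, and edgeR with no filter gave an adjusted p of 0.494. For the unknown ligand the exact permutation p was 0.205 after thinning and 0.00455 to 0.109 with each embryo left out. Its adjusted p in edgeR with no filter was 0.148. The change of *BMP5/8* to the 16-cell stage turned to 0.36 after thinning and lay between -0.43 and 0.15 with each embryo left out, as did *BMP3* between -0.92 and 0.80 between 8 and 16 cells, -0.081 and 0.95 from there, and -0.37 and 1.17 over the whole interval, and *maverick* between -0.39 and 0.58 between 16 and 32 cells. The coefficient of variation, leaving out single embryos, at 8, 16 and 32 cells lay between 11.5% and 22.9%, 2.92% and 31.6%, and 9.92% and 14.3% for *BMP2/4*, between 11.6% and 36.5%, 19.4% and 49.6%, and 21.7% and 37.5% for *BMP5/8*, and between 26.3% and 109%, 36.5% and 98.0%, and 67.5% and 116% for *BMP3*.

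No pairing of embryos by replicate number was seen. Correlations of deviations from the stage means lay between -0.062 and 0.045 for 10 same-numbered pairs and between -0.10 and 0.10 for the other 37. Counting noise in genes with few counts weakens such correlations, so a shared origin of embryos could go unseen. With the replicate number as a block, 1847 genes were called across the stages instead of 2044, and the ligands called remained 0 in all 4 comparisons. Over all genes, calls between 16 and 32 cells numbered 262, and 425 with no filter, and those between 8 and 16 cells 1118, and 740 without 16-cell replicate 2.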
